A study of Mus musculus with 4 samples.

Results

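The 10 genes described here encode inducible brakes on MAP kinase signalling: 7 dual-specificity phosphatase genes (Dusp1, Dusp2, Dusp4, Dusp5, Dusp6, Dusp8 and Dusp10) and 3 Sprouty genes (Spry1, Spry2 and Spry4). They were chosen by symbol from the 24548 genes of the series' count table, and all 10 passed the minimum of 40 reads over the 4 libraries that 23128 genes passed. The reads come from chromatin immunoprecipitation and sequencing (ChIP-seq) of Foxp1, a forkhead transcription factor, in the mammary epithelium of wild-type female mice aged 10 to 12 weeks (strain FVB/N in the series' design text, spelled FBV/N in the sample labels). The 4 groups were basal Foxp1 ChIP, basal input, luminal Foxp1 ChIP and luminal input, each with 1 library, where input is chromatin DNA sequenced with no antibody. In a mammary duct, contractile basal cells surround the luminal cells, which face the cavity. How many mice gave each library is not stated in the sources used here, and no library made with a control antibody was analysed here.

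MAP kinase cascades carry signals from growth factor receptors and from stress to the nucleus through Ras, Raf, MEK and the kinases ERK, JNK and p38. Dual-specificity phosphatases of this family remove phosphate from both the threonine and the tyrosine that activate a MAP kinase, and Sprouty proteins act further up, between the receptor and Raf. Many of these genes are themselves switched on by the cascade they shut down, which makes them negative feedback genes. In the mammary gland, receptor signalling through ERK takes part in duct growth and branching.

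The libraries held 3080114 to 4201459 reads in gene regions, and the median tested gene had 136 to 192 reads per library. The labels and notes do not say which part of each gene was counted, but the input counts were lower at genes whose start site lay near another. Among autosomal genes with another start 10000 bases or more away, the median was 153 reads in basal input and 207 in luminal input, against 26 and 36 where another start lay under 500 bases away. The fall was not in step with distance: the medians were lowest at 500 to 1000 bases (15 and 22.5), stood at 18 and 27 at 1000 to 2000 bases and at 51 and 69.5 at 2000 to 3000 bases, and were higher in each wider class. A value below was therefore read as belonging to a region around the gene's start, of which parts shared with a neighbour may be uncounted, and not to a called binding site. DNA libraries do not measure expression, so the labelled cell types were looked at through the reads at marker genes, in input and in ChIP. In basal over luminal input, 7 of 8 basal markers and 2 of 12 luminal markers had a log2 ratio above 0. The medians were 0.28 and -0.29, against -0.0007 over all tested genes. Fibroblast markers had a median of 0.20, with 4 of 5 above 0, and olfactory receptor genes a median of 0.21. Endothelial (-0.07), leukocyte (-0.06) and adipocyte markers (-0.007) had medians below 0. A ratio above 0 between the inputs was thus not particular to basal markers. A gene was called when its ratio of scaled counts, ChIP over own input, was 1.5-fold or more (log2 0.58) with a 99% interval that excluded 1. Of 8 basal markers, 2 (Krt5 and Krt14) were called higher in basal ChIP and 0 in luminal ChIP. Of 12 luminal markers, 0 were called higher in basal ChIP and 2 (Krt8 and Gata3) in luminal ChIP. None of 5 fibroblast, 4 endothelial, 5 leukocyte and 3 adipocyte markers was called higher in either. Over all tested genes 4.24% were called higher in basal and 1.5% in luminal ChIP, so lists this short cannot show that such cells were absent. Among these markers Dcn was called lower in basal ChIP and Plin1 in luminal ChIP.

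The promoters of the members are shown first because the counted regions appear to lie around the start sites. The RefSeq promoter table (GRCm38.p6, which is the mm10 build named in the submitters' processing notes) matched 8 of the 10 members, all but Dusp4 and Spry4. The 4 matched members that were called higher in basal ChIP are printed, followed by Dusp8, the member with the lowest basal ratio, as a contrast. Each line gives the 250 bases before the start listed there, read 5′ to 3′ on the gene's own strand. For Dusp8 that listed start lies inside the gene span given below, so its window falls within the gene. Capitals mark the forkhead core TGTTT or its complement, the cAMP response element TGACGTCA and the serum response element (CArG box).
Dusp1 (chr17:26508473-26508722, minus strand): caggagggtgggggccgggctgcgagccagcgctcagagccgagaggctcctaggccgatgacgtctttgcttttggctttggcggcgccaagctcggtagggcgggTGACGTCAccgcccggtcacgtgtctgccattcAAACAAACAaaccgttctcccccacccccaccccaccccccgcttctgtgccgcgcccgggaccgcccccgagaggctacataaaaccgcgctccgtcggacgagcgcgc
Dusp5 (chr19:53528895-53529144, plus strand): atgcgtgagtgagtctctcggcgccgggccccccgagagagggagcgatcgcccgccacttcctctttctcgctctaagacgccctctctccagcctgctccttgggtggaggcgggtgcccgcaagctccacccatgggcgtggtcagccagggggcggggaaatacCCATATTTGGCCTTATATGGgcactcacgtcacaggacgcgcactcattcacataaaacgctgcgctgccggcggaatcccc
Dusp6 (chr10:99262981-99263230, plus strand): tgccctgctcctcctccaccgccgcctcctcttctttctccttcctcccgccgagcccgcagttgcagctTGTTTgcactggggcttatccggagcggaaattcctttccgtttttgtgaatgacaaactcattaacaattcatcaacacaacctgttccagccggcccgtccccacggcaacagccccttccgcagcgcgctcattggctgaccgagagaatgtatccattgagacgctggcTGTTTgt
Spry2 (chr14:105896820-105897069, minus strand): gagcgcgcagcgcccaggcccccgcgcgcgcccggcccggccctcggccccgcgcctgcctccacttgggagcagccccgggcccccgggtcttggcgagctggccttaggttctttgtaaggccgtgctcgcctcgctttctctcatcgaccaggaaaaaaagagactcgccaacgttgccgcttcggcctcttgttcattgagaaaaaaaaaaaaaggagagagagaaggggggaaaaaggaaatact
Dusp8 (chr7:142095285-142095534, minus strand): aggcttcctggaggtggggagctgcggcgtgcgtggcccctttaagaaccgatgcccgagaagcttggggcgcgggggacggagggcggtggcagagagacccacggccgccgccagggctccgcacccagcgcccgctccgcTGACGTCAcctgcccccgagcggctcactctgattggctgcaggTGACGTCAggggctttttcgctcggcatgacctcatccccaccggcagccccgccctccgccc

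The longer forkhead motif TGTTTAC was in 0 of the 8 matched promoters and in 3.17% of the 32851 promoter windows of the table, searched on both strands over the same 250 bases. The shorter core TGTTT, which is contained in that motif, was in 2 of 8 against 46.4% of all windows. In Dusp1 it occurred 110 and 106 bases before the start, the pair sharing 1 base, and in Dusp6 it occurred 180 and 7 bases before it. The cAMP response element, bound by CREB factors, was in Dusp1 at 143 bases and in Dusp8 at 107 and 63 bases, against 1.55% of all windows. The serum response element, through which ERK signalling activates many immediate-early genes, was in Dusp5 at 82 and 72 bases, against 1.47% of all windows. The E-box CACGTG was in Dusp1 and Dusp2 (6.02% of all windows) and the GC box GGGCGG in 6 of 8 (32.7%), while the AP-1 site TGANTCA (6.75%), the ETS site CCGGAAGT (2.88%) and the TATA box TATAAA (12.4%) were in 0 of 8. The 8 matched windows had 56.4 to 71.6% G and C and 16 to 28 CG pairs, where the median window had 52.4% and 6. The shares of all windows were not matched for this, so they are no measure of excess or lack of a motif. These matches describe letters in a window and not binding.

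Dusp4, Dusp5 and Dusp6 were higher in Foxp1 ChIP than in input in both cell types, by 1.58 to 1.77-fold. Dusp1 and Spry2 were called higher in basal cells and lay close under the threshold in luminal cells. Dusp2, Dusp8, Dusp10, Spry1 and Spry4 were called in neither. By the rule given for the markers, 5 of the 10 members were called higher in basal ChIP, where 4.24% of all tested genes were, and 3 of 10 in luminal ChIP, where 1.5% were. The members were chosen with earlier results of these data known, so the shares here and below are a description and not a test. None was called lower in either (4.06% and 2.13% of all tested genes). The 3 called in both cell types stand beside 0.467% of all tested genes. Ratios above 1 were found at 8 of 10 members in basal cells (48.4% of all tested genes) and at 8 of 10 in luminal cells (49.6%). With the interval widened by the spread among olfactory receptor genes, 5 of 10 (3.58% of all tested genes) and 3 of 10 (1.13%) were called. With both inputs summed as background 4 of 10 (3.13%) and 4 of 10 (1.77%) were, and with ratios centred on the olfactory receptors 5 of 10 (12.9%) and 4 of 10 (2.47%). The median log2 ratio of the members was 0.49 in basal and 0.42 in luminal cells, against -0.01 and -0.002 over all tested genes. With 1 library per group there is no replicate check, no p-value is given, and the intervals cover counting error only. As no control antibody was used for comparison, DNA recovered without any binding of Foxp1 cannot be told apart from bound DNA.

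**Figure D1:**
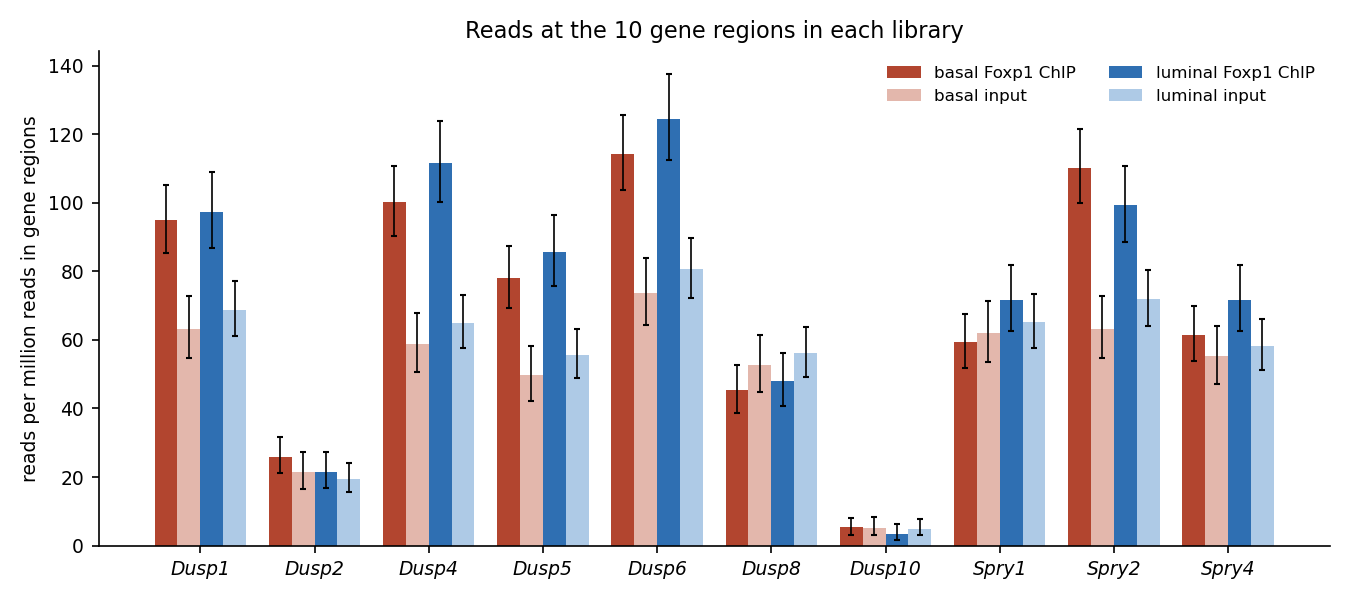
CPM, the reads of a region scaled to 1000000 reads in gene regions (vertical axis), at each of the 10 genes (horizontal axis) in the 4 libraries, with 1 bar per library, and exact 95% Poisson intervals as error bars. The ChIP bars of Dusp1, Dusp2, Dusp4, Dusp5, Dusp6, Spry2 and Spry4 stand above their own inputs in both cell types, those of Dusp2 and Spry4 with overlapping intervals. The ChIP bar is higher in basal cells only for Dusp10, in luminal cells only for Spry1, and in neither for Dusp8.

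Among the nuclear, inducible phosphatases, Dusp4 (Entrez gene 319520, chromosome 8, 34807610 to 34819894) acts on ERK and on JNK. Positions are those of the gene in GRCm38.p6, and all 10 members are protein-coding. In basal cells it had 378 ChIP and 181 input reads, and in luminal cells 353 and 273. As CPM (reads scaled to 1000000 reads in gene regions) this was 100.2 in basal ChIP (95% Poisson interval 90.3 to 110.8) over 58.8 (50.5 to 68.0), and 111.6 in luminal ChIP (100.2 to 123.8) over 65.0 (57.5 to 73.2). In each cell type the ChIP and input intervals did not overlap, while the ChIP libraries overlapped each other, as did the inputs. The basal ratio was 1.77-fold (99% interval 1.40 to 2.25) and the luminal ratio 1.76-fold (1.43 to 2.17), the latter ranking 178 of 23128 tested genes.

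Dusp5 (Entrez gene 240672, chromosome 19, 53529145 to 53541809), which encodes a nuclear phosphatase specific for ERK, had 294 ChIP reads over 153 input reads in basal cells and 271 over 234 in luminal cells. Its ratios were 1.63-fold (1.26 to 2.13) and 1.58-fold (1.25 to 1.99). Dusp5 is the member whose printed promoter carries an adjacent pair of serum response elements. Dusp6 (Entrez gene 67603, chromosome 10, 99263231 to 99267489), for the cytoplasmic counterpart that also prefers ERK, had 431 reads over 227 in basal cells and 394 over 339 in luminal cells. Its ratios were 1.61-fold (1.30 to 2.0) and 1.58-fold (1.30 to 1.92). Dusp5 and Dusp6 thus stood within 0.02 of each other on the log2 scale in each cell type, well inside their intervals.

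Dusp1 (Entrez gene 19252, chromosome 17, 26505591 to 26508472), an immediate-early gene for a nuclear phosphatase that acts on JNK and p38 as well as ERK, had 358 reads in basal ChIP over 195 in input. In luminal cells it had 308 reads over 289. The basal ratio of 1.56-fold (1.24 to 1.97) was called, but not with total counts as the scale (log2 0.584, against a threshold of 0.585) or with both inputs summed as background (0.57). The luminal ratio of 1.45-fold (1.17 to 1.80) had an interval above 1 and was not called, though it was with the inputs summed (0.59) or with ratios centred on olfactory receptor genes (0.60). Dusp1 thus lies at the threshold in both cell types.

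Spry2 (Entrez gene 24064, chromosome 14, 105891947 to 105896819), the Sprouty gene known for restraining receptor tyrosine kinase signalling in branching epithelia, had the highest basal ratio of the 10. It had 416 ChIP reads over 195 input reads in basal cells, and 314 over 302 in luminal cells. As CPM this was 110.3 over 63.3 in basal cells and 99.2 over 71.9 in luminal cells, so that ChIP was higher in basal cells and input higher in luminal cells, with 95% intervals that overlapped in both cases. The basal ratio was 1.81-fold (1.45 to 2.28), rank 331 of 23128, and the luminal ratio 1.41-fold (1.15 to 1.75), an interval above 1 but short of the threshold.

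**Figure D2:**
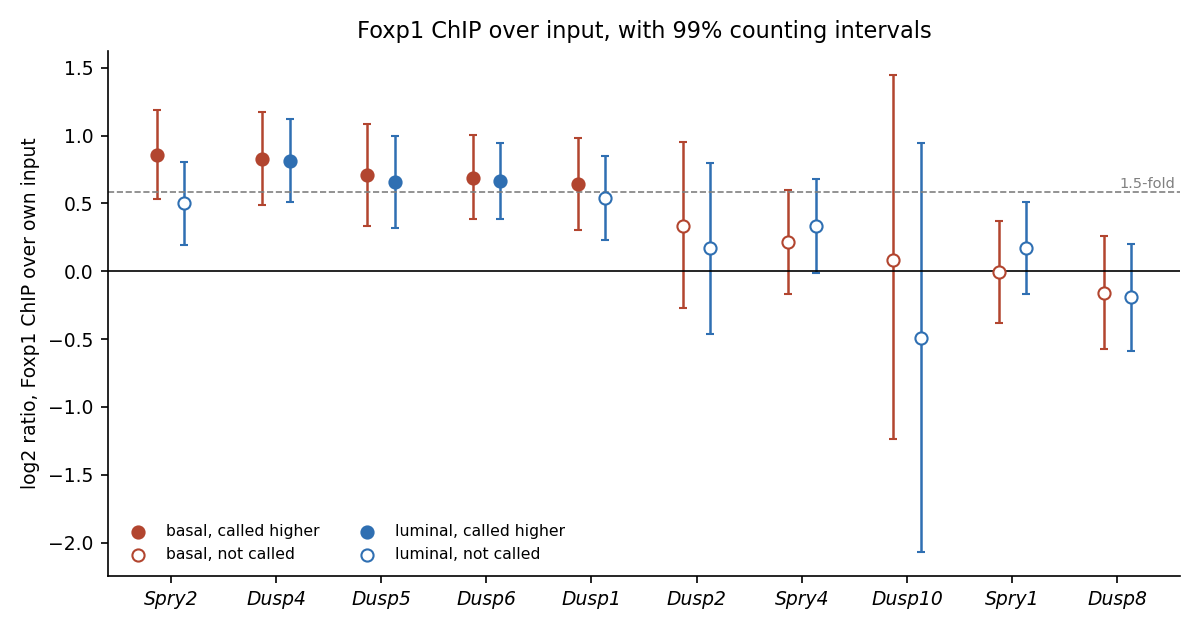
Log2 ratio of Foxp1 ChIP over own input (vertical axis) for the 10 genes, ordered by basal ratio, in basal (red) and luminal (blue) cells, with 99% counting intervals; filled points were called higher and the dashed line is 1.5-fold. Dusp4, Dusp5 and Dusp6 are filled in both cell types, Spry2 and Dusp1 in basal cells, and the long bars of Dusp10 reflect 11 to 21 reads per library.

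Dusp8 (Entrez gene 18218, chromosome 7, 142079487 to 142095907), which encodes a phosphatase that prefers JNK and p38, was not called. It had 171 ChIP reads over 162 input reads in basal cells and 152 over 236 in luminal cells. Its ratios were 0.896-fold (0.671 to 1.2) and 0.876-fold (0.665 to 1.15), with intervals on both sides of 1. Dusp8 had the lowest basal ratio of the members, and its printed window holds 2 cAMP response elements. That window (142095285 to 142095534) lies inside the gene span, before a start within the gene. It is not the sequence before the outer end of the span.

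Dusp10 (Entrez gene 63953, chromosome 1, 184034381 to 184075636), whose phosphatase also prefers JNK and p38, was too thinly covered for its ratio to be resolved. It had 20 ChIP and 16 input reads in basal cells, and 11 and 21 in luminal cells. Its ratios of 1.06-fold (0.424 to 2.73) and 0.713-fold (0.239 to 1.92) would have been called only from 2.17-fold in basal and 2.14-fold in luminal cells at this input depth. The start of Dusp10 lies 383 bases from that of 1700056E22Rik on the other strand, the spacing at which the median gene had 26 basal input reads. Spry4, whose gene lies 269 bases from Arhgap26, had 170 basal and 245 luminal input reads, and its distance between starts was not available. Whether spacing lowered the counts of Dusp10 was not tested.

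Dusp2 (Entrez gene 13537, chromosome 2, 127336159 to 127338377), for a nuclear phosphatase best known from activated immune cells, had 98 reads over 66 in basal cells and 68 over 82 in luminal cells. Its ratios were 1.26-fold (0.829 to 1.94) and 1.13-fold (0.727 to 1.74). Both intervals held 1. Its start lies 2480 bases from that of Astl. At its input depth a ratio of 1.5-fold in basal or 1.51-fold in luminal cells would have been called.

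Spry1 and Spry4, which like Spry2 inhibit signalling from growth factor receptors to ERK, were called in neither cell type. Spry1 (Entrez gene 24063, chromosome 3, 37639947 to 37644599) had 224 reads over 191 in basal cells and 227 over 274 in luminal cells, ratios of 0.995-fold (0.769 to 1.29) and 1.13-fold (0.890 to 1.43). Spry4 (Entrez gene 24066, chromosome 18, 38586247 to 38601347) had 232 reads over 170 and 227 over 245, ratios of 1.16-fold (0.890 to 1.51) and 1.26-fold (0.990 to 1.61). The intervals of both held 1 in each cell type, and their input reads lay within the range of those of the called members. Of the upper bounds, only those of Spry4 passed 1.5-fold.

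The order of the members by ratio was graded. In basal cells it ran Spry2, Dusp4, Dusp5, Dusp6, Dusp1, Dusp2, Spry4, Dusp10, Spry1 and Dusp8, and in luminal cells Dusp4, Dusp6, Dusp5, Dusp1, Spry2, Spry4, Dusp2, Spry1, Dusp8 and Dusp10. None of the 9 neighbouring pairs in either order differed beyond counting error at 99%. The ends of the basal order did: Spry2 exceeded Dusp8 by log2 1.02 (0.50 to 1.53). In luminal cells Dusp4 exceeded Dusp8, the last but Dusp10, by 1.01 (0.52 to 1.49). These pairs were picked by their rank, which the intervals do not allow for. Dusp4 and Dusp10, the ends of the luminal order, differed by 1.30 with an interval of -0.09 to 2.69. Across the 10 genes the basal and luminal log2 ratios had Pearson's r = 0.84 and Spearman's rho = 0.82, against 0.21 and 0.25 across all 23128 tested genes. The 10 points share their 4 libraries and differ in depth, so this is a description.

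Each member's difference between the cell types lay within counting error. The difference was taken as the basal minus the luminal log2 ratio, each over its own input, and 0 of 10 members were called in either direction, where 3.72% of all tested genes were higher in basal and 4.16% in luminal cells. Spry2 had the largest difference among the members with over 100 reads in each library, 0.35 (standard error 0.17, 99% interval -0.09 to 0.79). Dusp4 differed by 0.01 (-0.44 to 0.46), Dusp6 by 0.03 (-0.38 to 0.44), Dusp5 by 0.05 (-0.45 to 0.54) and Dusp1 by 0.10 (-0.35 to 0.55). These intervals allow differences of up to 1.35 to 1.47-fold in favour of basal cells for these 4 genes, so equal recovery was not shown. Spry1 (-0.18, -0.68 to 0.31) and Spry4 (-0.12, -0.63 to 0.38) had the only negative values; Dusp10 stood at 0.53 on very few reads (-1.30 to 2.37), Dusp2 at 0.15 and Dusp8 at 0.03.

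**Figure D3:**
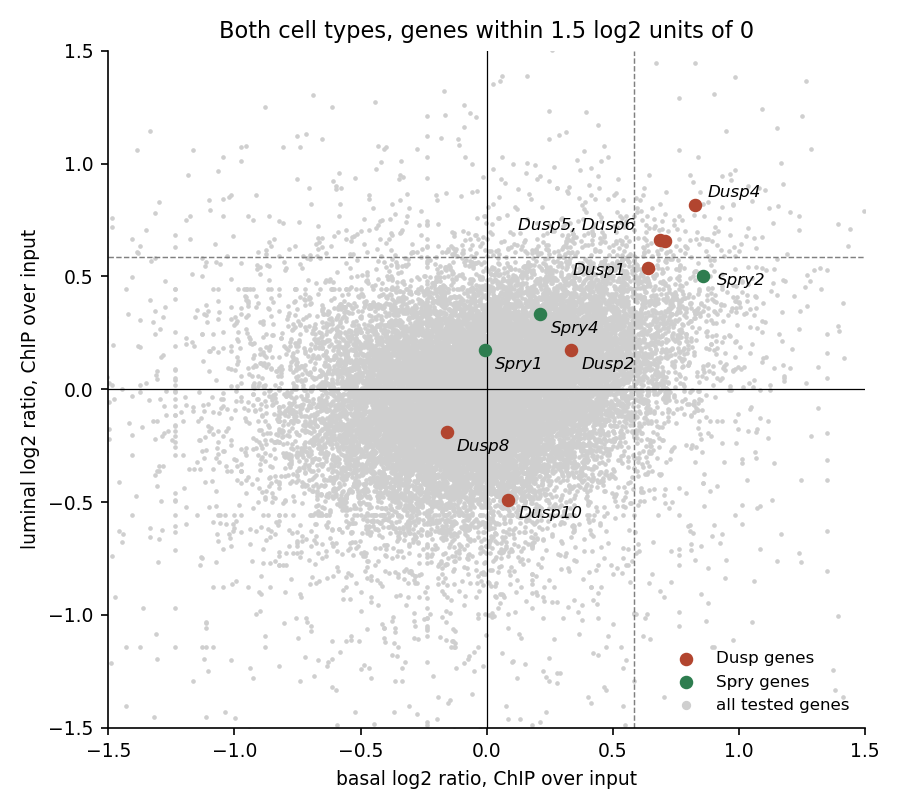
Basal (horizontal axis) and luminal (vertical axis) log2 ratio of ChIP over input for tested genes (grey), the Dusp members (red) and the Spry members (green); dashed lines mark 1.5-fold, and 187 of 23128 genes lie outside the axes. Dusp4, Dusp5 and Dusp6 lie past both lines, Dusp1 and Spry2 past the basal line only.

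The inputs gave the background without antibody. In basal over luminal input 0 of 10 members were called (0.709% of all tested genes were higher in basal and 0.463% in luminal input). Their input ratios ran from 0.880-fold for Spry2 (99% interval 0.690 to 1.12) to 1.10-fold for Dusp2 (0.704 to 1.70), and 8 of 10 were below 1. The reads of the 10 members summed gave 0.924-fold (0.848 to 1.01) between the inputs, 1.43-fold (1.32 to 1.55) for basal ChIP over input and 1.38-fold (1.28 to 1.49) for luminal ChIP over input. Compared directly between the ChIP libraries, 0 of 10 members were called, against 4.05% of all tested genes higher in basal and 3.98% in luminal ChIP, and Spry2 stood at 1.13-fold basal over luminal (0.927 to 1.37).

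The other genes of the pathway were taken from lists chosen for their role, with earlier results of these data known. Their counts stand beside 4.24% of all tested genes called higher in basal and 1.5% in luminal ChIP. Called lower were 4.06% and 2.13%. Of the 3 remaining classical MAP kinase phosphatases, 0 were called in either cell type. Dusp7, which acts on ERK, stood at log2 0.58 in basal and 0.44 in luminal cells, Dusp16 at 0.37 and 0.49, and Dusp9 at 0.36 and 0.07. Dusp7 had 283 ChIP reads over 161 input reads in basal cells and lay just under the threshold. Of the 14 atypical dual-specificity phosphatases, most of which do not act on MAP kinases, 1 was called higher in basal ChIP (Dusp28, 0.64) and 1 lower (Dusp21, -0.60), with a median of 0.08. None was called in luminal ChIP, where values ran from -0.68 for Dusp18 to 0.37 for Dusp12.

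Of 5 relatives of the Sprouty genes, Spred2 was called in both cell types and Spred1 in basal cells, where 4.24% (basal) and 1.5% (luminal) of all tested genes were called higher. Spred proteins block the activation of Raf by Ras. Spred2 had 351 reads over 185 in basal cells and 274 over 211 in luminal cells, log2 ratios of 0.69 and 0.82, the luminal value beside 0.82 for Dusp4. Spred1 stood at 0.62 in basal and 0.24 in luminal cells. Spred3 was lowest at -1.0 and -0.56, on 10 to 22 reads per library, and the median of the 5 was 0.02 in basal and 0.24 in luminal cells.

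Other brakes on receptors and Ras had 1 of 10 called higher in basal ChIP (4.24% of all tested genes), the ubiquitin ligase gene Cblb (0.61). In luminal ChIP 0 of 10 were called higher (1.5% of all tested genes). Errfi1, an inhibitor of the EGF receptor, was lowest at -0.77 and -0.24 on 20 to 37 reads, and Pebp1, a Raf inhibitor, was highest in luminal ChIP at 0.52 without being called. Of 17 tested genes of the ERK cascade itself, 1 was called higher in basal ChIP, the Raf kinase gene Braf (0.70). That is 5.88%, near the 4.24% of all tested genes. The ERK1 gene Mapk3 was lowest in basal ChIP (-0.44). None of the 17 was called in luminal ChIP, where the Ras gene Nras stood highest (0.44) and the MEK gene Map2k1 lowest (-0.39). Of 16 genes of the JNK and p38 cascades 0 were called higher in either cell type and 1, Map2k3, lower in basal ChIP with 21 reads over 41. Mapk14, the p38 alpha gene, was highest at 0.89 and 0.50 but had only 37 reads over 17 in basal cells. The medians were 0.19 and 0.18 for the ERK cascade and 0.14 and 0.06 for the JNK and p38 cascades. Dok1 and Map2k2 had too few reads to be tested.

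Of 12 genes that ERK signalling is known to switch on, 8 were called higher in basal ChIP (Fos, Fosl1, Junb, Egr1, Egr3, Etv5, Myc and Ier2) and 3 in luminal ChIP (Fos, Junb and Ier2), with medians of 0.67 and 0.35. The shares of all tested genes were 4.24% and 1.5%, with medians of -0.01 and -0.002. Junb was highest, at 1.18 in basal and 0.91 in luminal cells, and Ier3 lowest, at -0.19 and -0.43. In the difference between cell types Myc (0.62), Braf (0.68) and Map2k1 (0.87) were called higher in basal cells, and Dusp21 (-0.69) in luminal cells. By list this was 1 of 12 ERK output genes, 2 of 17 ERK cascade genes and 1 of 14 atypical phosphatases. Of all tested genes, 3.72% were called higher in basal and 4.16% in luminal cells, so these calls do not set the pathway apart. Whether the lists differ from each other was not tested.

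**Figure D4:**
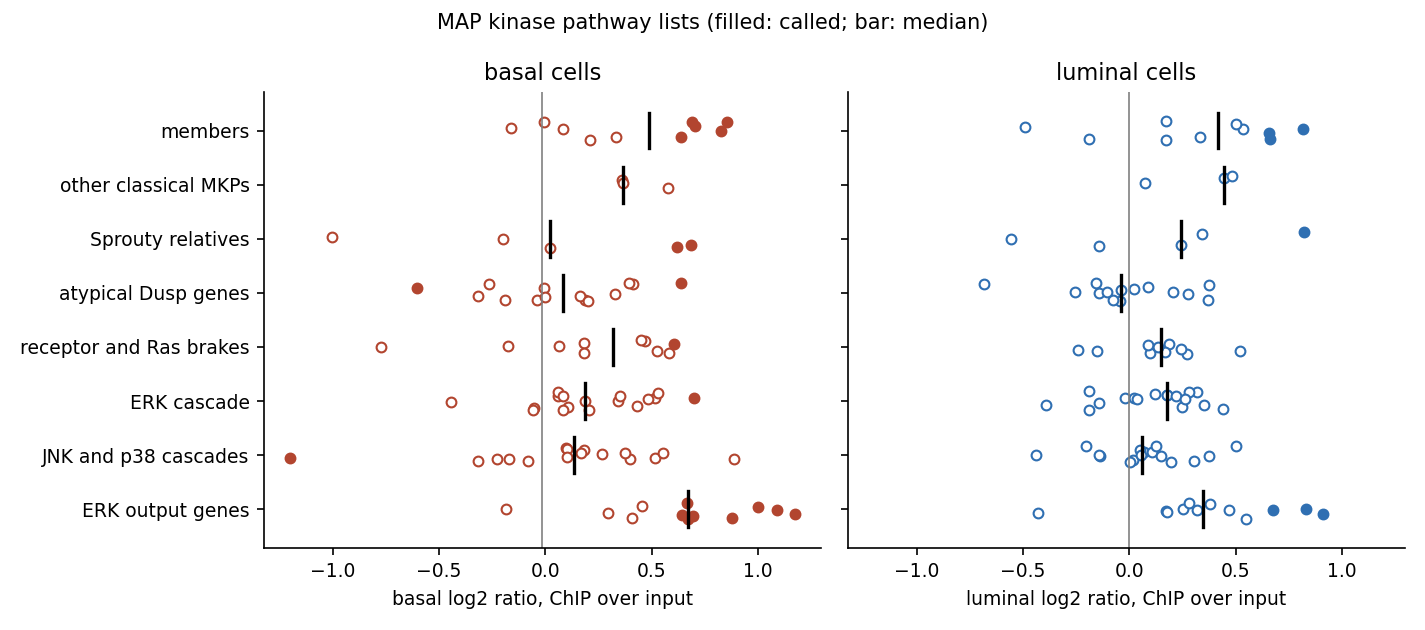
Log2 ratio of ChIP over input (horizontal axes) of each tested gene in the MAP kinase lists (rows) in basal and luminal cells; filled points were called in either direction, black bars are list medians and the grey line is the median of all tested genes. The members (medians 0.49 and 0.42) and the ERK output genes (0.67 and 0.35) hold 5 and 8 points called higher in basal cells and 3 each in luminal cells. Of all tested genes, 4.24% and 1.5% were called higher. The kinase lists have medians between 0.06 and 0.19.

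The genes whose pair of ratios lay nearest to that of Spry2, the member with the highest lower bound in basal cells, were Bvht, Ahnak and S100a6. Their distances were 0.01, 0.03 and 0.04 log2 units in the plane of the basal and luminal ratio, among 16191 named genes with at least 100 reads in each input. Likeness over 2 ratios says nothing of shared control.

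Promoter composition moved with the ratios across the genome, and the members' promoters were rich in CG pairs. Across 17432 tested genes with a promoter in the table, the number of CG pairs in the 250 bases had Spearman's rho of 0.33 with the basal ratio, 0.22 with the luminal ratio and -0.26 with basal over luminal input. The 8 matched members had 16 to 28 CG pairs, where the median window had 6. Genes with 10 to 19 pairs had a median log2 ratio of 0.08 in basal and 0.04 in luminal cells, and 5.32% and 1.57% of them were called higher. Genes with 20 to 29 pairs had 0.14 and 0.08, and 7.18% and 2.34% called. Dusp6 with 16 pairs, Dusp5 with 21, Spry2 with 23 and Dusp1 with 28 stood at 0.50 or more in both cell types, whereas Spry1 with 23, the same number as Spry2, and Dusp8 with 25 stood at 0.17 or less. Dusp2 with 19 pairs stood at 0.33 in basal and 0.17 in luminal cells, and Dusp10 with 17 at 0.09 and -0.49. The part of base composition in the members' ratios was not tested.

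**Figure D5:**
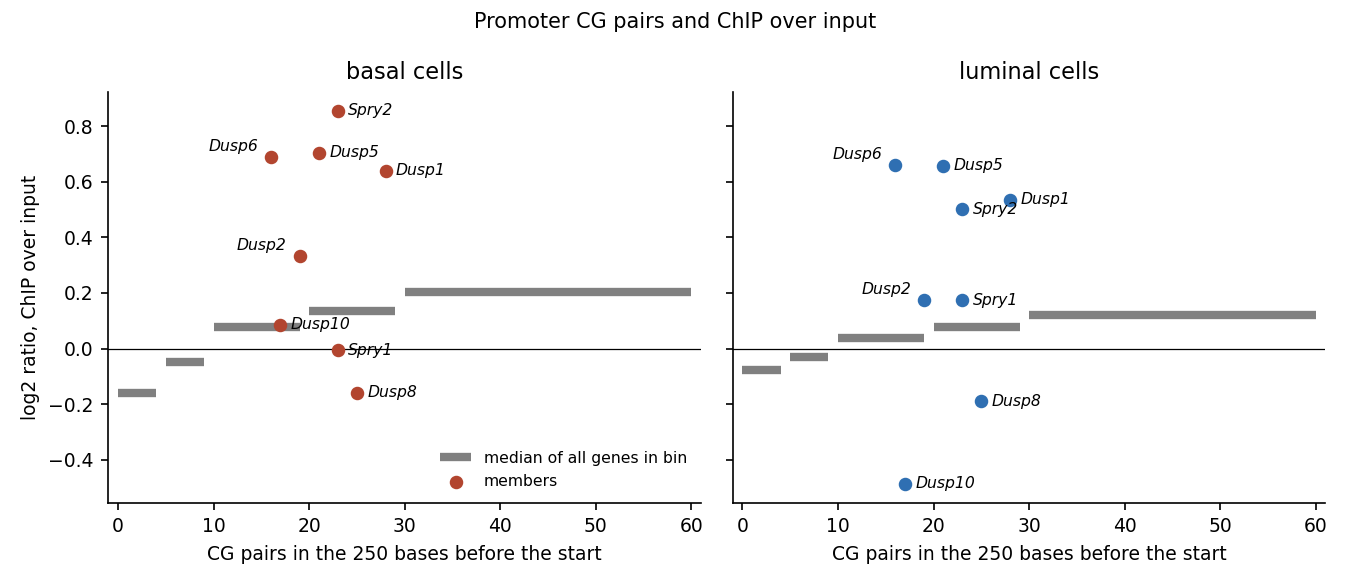
Log2 ratio of ChIP over input (vertical axis) against the number of CG pairs in the 250 bases before the start (horizontal axis) for the 8 matched members in basal and luminal cells; grey bars are the median ratio of all tested genes in bins of CG pairs. Dusp1, Dusp2, Dusp5, Dusp6 and Spry2 lie above the bar of their bin in both cell types, and Dusp8 lies below it in both. Dusp10 lies above it in basal cells only and Spry1 in luminal cells only.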

How the data were processed

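The authors deposited raw read counts per gene, not normalized, for 4 libraries. Per the submitters' processing notes, reads were counted with featureCounts on build mm10, and per the labels' protocols they were single reads of 75 to 85 bp from a NextSeq 500. Of the aligner, the versions, duplicate handling and the counted region nothing is stated in the sources used here. The table of all samples and the per-sample files held equal counts at 24548 of 24548 genes.

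Counts were scaled with TMM factors (edgeR 4.0.16, R 4.3.3) over the 23128 genes with at least 40 reads over the 4 libraries; 1420 genes were not tested. Each ratio has an exact Clopper-Pearson 99% interval (scipy 1.17.1). The difference between cell types has a normal interval from the 4 counts plus 0.5. PCR copies make reads less independent than these intervals assume. Alternatives were total counts, DESeq2 1.42.0 size factors, ratios centred on 1089 olfactory receptor genes, both inputs summed as background, no count filter, intervals widened by the receptors' spread, a 95% interval and a 2-fold threshold. The calling code was tested on simulated counts, which do not bear on any single call. Gene positions and promoters come from RefSeq (GRCm38.p6). The text names all members, each list's highest, lowest and called genes, and the 3 genes nearest to the leading member. Some genes of the ERK cascade list are not reported here and were left out of its counts, medians and plot. Members and lists were chosen with earlier results of these data known.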

Additional observations from a re-analysis of the deposited data

Results flagged for a closer look

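At 2 members the ratio lay on different sides of 1 in the 2 cell types, a difference that was not tested because each group has 1 library. Dusp10 differed by log2 0.53 (basal minus luminal) on 11 to 21 reads per library, and Spry1 by -0.18, both with 99% counting intervals that hold 0. For Spry1 the basal ratio was 0.995-fold. It lay above 1 with DESeq2 size factors (log2 0.002) and with the olfactory receptors as centre (log2 0.21), so its side depended on the scaling. Among the other pathway genes that were called in the difference, Map2k1 (0.87) and Dusp21 (-0.69) also had ratios on different sides of 1. Of all tested genes, 3.72% were called higher in basal and 4.16% in luminal cells in this difference.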

How the results depend on the processing

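No paired analysis was possible because each group has 1 library, and for the same reason no library could be left out. At a 2-fold threshold 0 of the 10 members were called in basal and 0 in luminal ChIP, since the highest ratio was 1.81-fold. Under the other alternatives 4 or 5 members were called in basal ChIP and 3 or 4 in luminal ChIP. Dusp4, Dusp5 and Dusp6 were called in both cell types under each of those alternatives, the widened interval included, and Dusp1 was the only member whose call changed. Centred on the olfactory receptors, the basal median of the members was 0.70 in place of 0.49, while the median of all tested genes moved to 0.20 in basal and 0.06 in luminal cells. That scaling called 12.9% of all tested genes higher in basal ChIP and raised the share of higher among all calls from 51.1% to 92.7% in basal and from 41.4% to 65.1% in luminal cells; with total counts it was 34.7% and 30.7%. The sign of the basal ratio turned for Dusp8 (0.06) and Spry1 (0.21) with the receptors as centre, and for Spry1 (0.002) with DESeq2 size factors. With the inputs summed, the difference between cell types turned below 0 for Dusp1, Dusp4, Dusp5, Dusp6 and Dusp8, from -0.14 to -0.02. In that setting the inputs cancel. The difference also turned below 0 for Dusp4 with total counts (-0.01), and above 0 for Spry4 with the receptors as centre (0.03). Each of the 150 single-gene values stayed within its 95% counting interval. No member was called in the difference or between the inputs under any alternative. The variance of the receptor counts was 2.29 times that of counting error in basal ChIP over input and 2.13 times in luminal, and the intervals were widened by the square root of this.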
